A study of Arabidopsis thaliana with 8 samples.

Results

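The 6 genes described here are AT4G11190 and AT4G11210 (dirigent family), AT5G47980 (an acyltransferase of the BAHD family), TPS-CIN (a cineole synthase), FACT (a caffeoyltransferase) and AT5G37990 (a methyltransferase of the SABATH family). Each was read by 1 probe set to which the array annotation gives a single gene, so 6 of 22746 tested probe sets carry the description. A further probe set is annotated to both copies of TPS-CIN and is given beside the first. The genes were chosen by measured differences on these arrays: AT4G11190, AT4G11210 and AT5G47980 for being lower in the mutant under benzyladenine, AT5G47980 also for its rise with benzyladenine in wild type, and TPS-CIN, FACT and AT5G37990 for being lower in the mutant under DMSO. Those differences, and any that share arrays with them, are given as descriptions with no test. What was left to test is the genotype difference under DMSO for both dirigent genes and the genotype difference under benzyladenine for TPS-CIN, FACT and AT5G37990. Only the differences are free of the choice: their standard errors and p-values use a spread shared by all groups, the arrays of the choice included.

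RNA from Arabidopsis thaliana was hybridised to 8 single-colour Affymetrix arrays, 2 in each of 4 groups. The groups were wild-type or arr1,10,12 mutant plants, grown for 14 days and then placed for 1 h in liquid medium that held either DMSO, the vehicle, or the cytokinin benzyladenine (BA) at 10 µM. The mutant is disrupted in ARR1, ARR10 and ARR12, type-B response regulators that act as DNA-binding activators of cytokinin signalling; none of the 3 had a named probe set here, so the genotype labels were not checked on them. Plants were labelled as seedlings, and the treatment protocol states that roots were cut off and discarded before shoots were frozen. A deposited value is a relative value without a unit: for these 6 genes, and for the probe set of both TPS-CIN copies, it is the level on an array divided by the gene's own median over the 8 arrays. Values allow comparison of arrays for 1 gene, not of 1 gene with another. In RNA from whole shoots, fewer cells of a type and less RNA per cell cannot be told apart.

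The genes belong to specialised metabolism. Dirigent proteins steer the coupling of phenolic radicals in lignan and lignin formation and carry no catalytic centre of their own. Terpene synthases form terpenes from prenyl diphosphates, and TPS-CIN is known as a root-expressed monoterpene synthase of Arabidopsis. BAHD enzymes transfer acyl groups from coenzyme A: FACT joins caffeic acid to fatty alcohols to give alkyl caffeates of root waxes, and AT5G47980 lies in the thalianol gene cluster, a group of adjoining genes that make a root triterpene. SABATH enzymes methylate small acids such as jasmonate and salicylate, and the substrate of AT5G37990 is not described here.

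Of the 8 arrays, replicate 1 of the DMSO-treated mutant stood apart. Its median log2 ratio of 5′ to 3′ probe sets over 6 pairs of housekeeping controls was -1.51, against -0.01 to 0.15 on the other 7 arrays. It differed by more than 2-fold from its group mate at 17.9% of probe sets, whereas group mates elsewhere differed so at 0.747% to 3.34%. Results are therefore given with all 8 arrays and with the 7 that remain without it; in the latter the DMSO-treated mutant is 1 array that is assumed to vary like the other groups. In comparisons that do not use the DMSO-treated mutant, such as genotype under BA, leaving out replicate 2 of that group in place of replicate 1 gives the same values and p-values, because in either case the spread between these mates leaves the shared error; a call gained with 7 arrays there does not depend on which of the mates is left out. All 4 wild-type arrays carry a prefix in their file names that is found on none from the mutant, so genotype and that prefix cannot be told apart in any genotype comparison below.

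The 6 genes fell into 2 patterns across the groups. AT4G11190, AT4G11210 and AT5G47980 were highest on the BA-treated wild-type arrays, intermediate on the DMSO-treated wild-type arrays and low on all 4 mutant arrays. TPS-CIN, FACT and AT5G37990 stood at similar values in wild type with and without BA and were low on the mutant arrays. For each of the 6 genes all 4 mutant arrays lay below all 4 wild-type arrays, as they did for 3.04% of all probe sets, and for 3 of the 6 both BA-treated wild-type arrays lay above the other 6, against 4.42% of all probe sets. Since the choice of genes used these contrasts, the counts describe the genes and nothing is read from them.

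**Figure D1:**
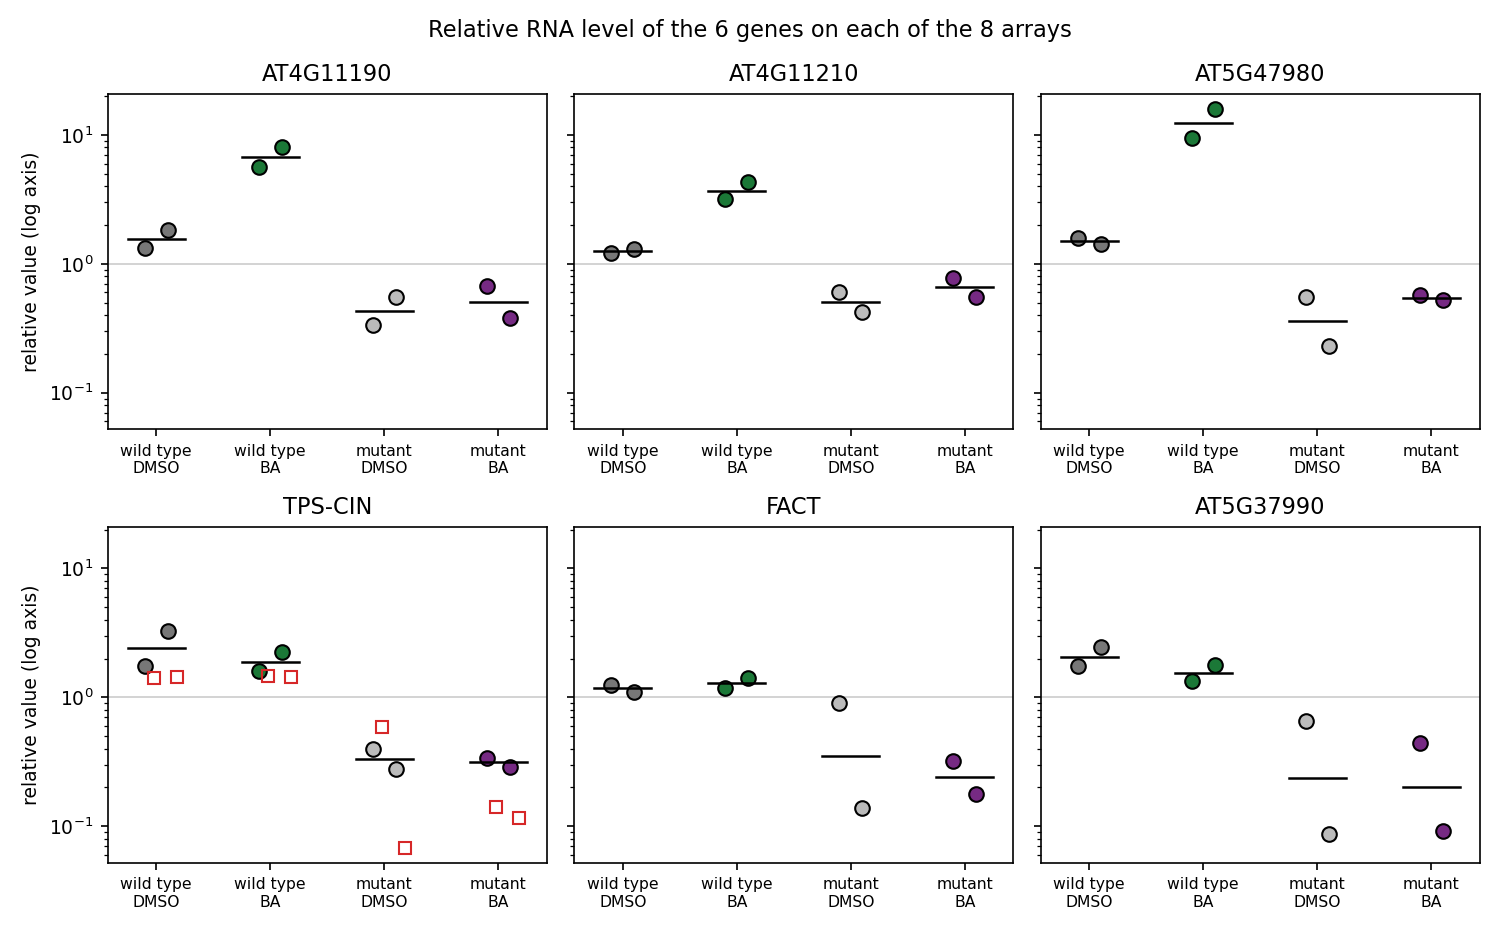
Relative value of each gene (log axis, no unit) on the 8 arrays, by group; filled circles are arrays, bars are geometric means of 2 arrays, and open squares in the TPS-CIN panel are the probe set of both copies. The top row is raised on BA-treated wild-type arrays (AT5G47980 reaches 9.43 and 15.9), whereas in the bottom row wild-type values are alike with and without BA and mutant values are lower.

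Among the genes with a BA response, AT4G11190 was at 1.32 and 1.82 on the wild-type DMSO arrays and at 5.65 and 8.04 on the wild-type BA arrays. On the mutant arrays it was at 0.338 and 0.549 with DMSO and at 0.676 and 0.378 with BA. The wild-type groups did not overlap, whereas the mutant groups did. BA was associated with a 4.35-fold higher value in wild type (log2 change 2.12 ± 0.38, SE, 8 arrays), and in the mutant the log2 change was 0.23 ± 0.38 with 8 arrays and -0.12 ± 0.39 with 7. Between the BA-treated groups the mutant was 13.3-fold lower.

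AT4G11210, which follows AT4G11190 in the gene order of the TAIR10.1 assembly with only a pseudogene between them, had the same order of groups on a smaller scale. In wild type its values were 1.22 and 1.31 under DMSO and stood at 3.20 and 4.28 under BA. In the mutant it stood at 0.606 and 0.421 under DMSO and at 0.782 and 0.556 under BA, which overlap. Its value was 2.93-fold higher with BA in wild type (log2 change 1.55 ± 0.27, 8 arrays) and differed by 0.38 ± 0.27 in the mutant with 8 arrays and 0.65 ± 0.27 with 7. Under BA the mutant was 5.61-fold lower than wild type. Whether the probe sets of these related genes read each other's transcripts was not tested.

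AT5G47980 had the widest range of the 6 genes, with a highest value 69.0 times the lowest. It stood at 1.59 and 1.43 on the wild-type DMSO arrays and at 9.43 and 15.9 on the wild-type BA arrays. On the mutant arrays it was at 0.552 and 0.231 with DMSO and at 0.570 and 0.522 with BA. Replicate 1 of the DMSO-treated mutant thus lay between both BA-treated mutant arrays, and replicate 2 below them. BA was associated with an 8.14-fold higher value in wild type, a log2 change of 3.03 ± 0.43 with 8 arrays. In the mutant the change was 0.61 ± 0.43 with 8 arrays and 1.24 ± 0.30 with 7. Under BA the mutant was 22.5-fold lower, and under DMSO it was 4.22-fold lower with 8 arrays and 6.52-fold lower with 7 (log2 -2.08 and -2.70), and -1.45 on the log2 scale when replicate 2 was left out in place of replicate 1.

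The BA response of these 3 genes was smaller in the mutant by -1.89 ± 0.54 (AT4G11190), -1.16 ± 0.38 (AT4G11210) and -2.41 ± 0.61 (AT5G47980) on the log2 scale with 8 arrays. With 7 arrays the values were -2.24 ± 0.51, -0.90 ± 0.34 and -1.79 ± 0.39. These differences contain the arrays on which the genes were chosen and carry no test.

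The genotype difference of both dirigent genes under DMSO rests on arrays that did not enter their choice, whereas its standard error and p-value also draw on the BA-treated arrays. AT4G11190 was 3.60-fold lower in the mutant (log2 change -1.85 ± 0.38, 8 arrays), with both mutant arrays below both wild-type arrays (an order found at 13.8% of all probe sets), and did not pass the limma test after Benjamini-Hochberg adjustment over 22746 probe sets (adjusted p = 0.163). AT4G11210 was 2.50-fold lower (-1.32 ± 0.27) with an adjusted p of 0.158 by the same limma fit. The 95% intervals of these log2 changes, unadjusted, ran from -2.77 to -0.93 and from -1.96 to -0.68. With 7 arrays AT4G11210 passed (-1.59 ± 0.27, limma adjusted p = 0.0274), where 1.89% of all probe sets were called as lower, and AT4G11190 did not (-1.50 ± 0.39, limma adjusted p = 0.0934). With 8 arrays 0.00879% of probe sets were called, all as lower. With replicate 2 of the DMSO-treated mutant left out in place of replicate 1, both genes passed (AT4G11190 -2.20, limma adjusted p = 0.0108; AT4G11210 -1.06, limma adjusted p = 0.0318). From the 7 arrays, without either wild-type DMSO array as well, AT4G11210 no longer passed (limma adjusted p = 0.115 and 0.152, 6 arrays).

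**Figure D2:**
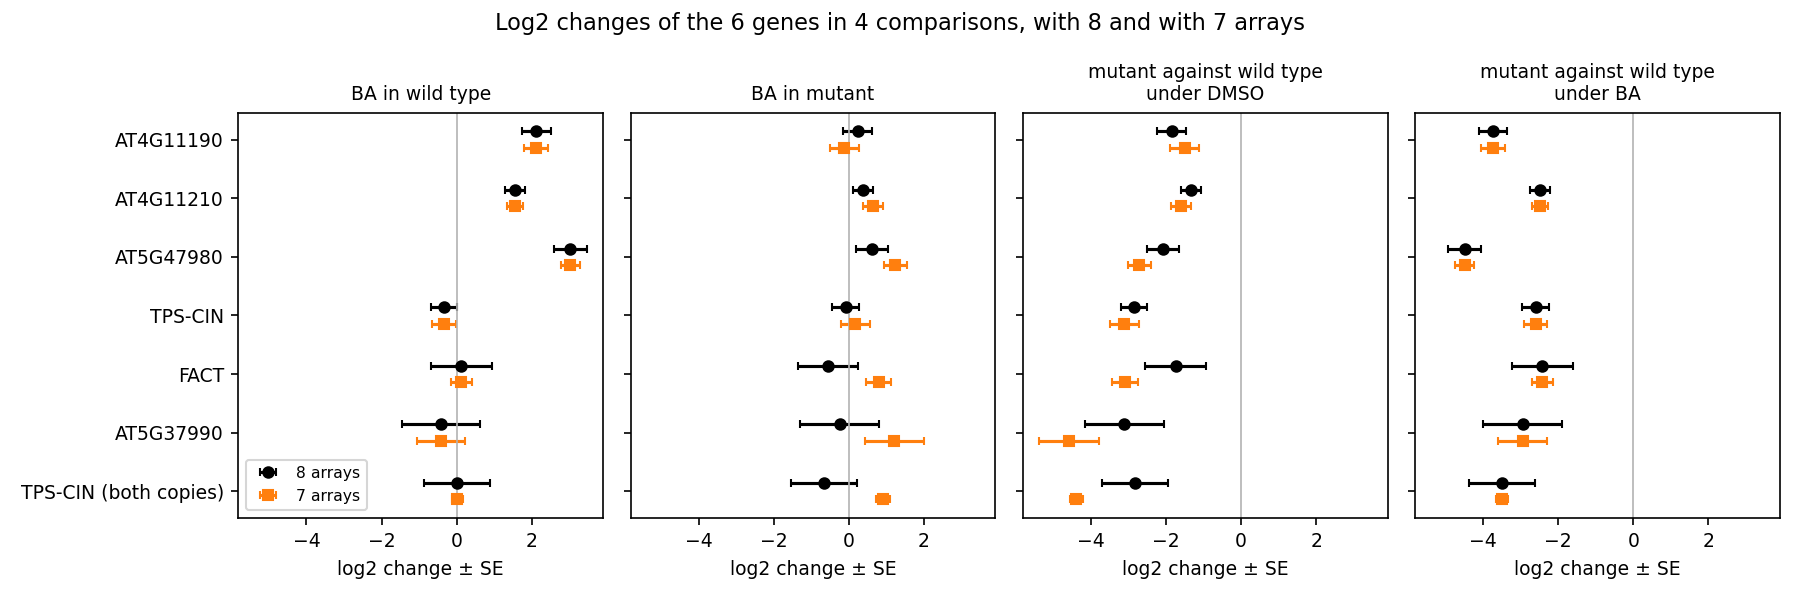
Log2 change of each gene and of the probe set of both TPS-CIN copies in 4 comparisons, with standard errors; black circles are the 8-array fit and orange squares the 7-array fit without replicate 1 of the DMSO-treated mutant. AT4G11190, AT4G11210 and AT5G47980 lie right of 0 for BA in wild type, and all 6 genes lie left of 0 in both genotype comparisons.

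TPS-CIN was lower in the mutant whichever treatment was given. In wild type it stood at 1.74 and 3.29 under DMSO and at 1.61 and 2.23 under BA, which overlap. The mutant arrays gave 0.394 and 0.278 under DMSO and 0.341 and 0.286 under BA, which overlap as well. The mutant was 7.23-fold lower under DMSO with 8 arrays, and under BA, on arrays not used for the choice, it was 6.06-fold lower (log2 change -2.60 ± 0.35). The latter difference had a limma adjusted p of 0.0704 with 8 arrays and passed with 7 (adjusted p = 0.00721), where 3.56% of all probe sets were called as lower, against 0.132% with 8 arrays. It did not pass with 6 arrays when wild-type BA replicate 2 was also left out (limma adjusted p = 0.0571). The BA effect was -0.34 ± 0.35 in wild type and -0.08 ± 0.35 in the mutant.

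The probe set of both TPS-CIN copies gave 1.41 and 1.44 with DMSO and 1.45 and 1.43 with BA in wild type, which is the closest agreement between group mates among the 7 probe sets. On the mutant arrays it gave 0.590 and 0.0684 with DMSO and 0.142 and 0.115 with BA. Both probe sets thus placed every mutant array below every wild-type array, but they differed on replicate 1 of the DMSO-treated mutant, where the shared probe set was 8.63 times its group mate and the other was 1.42 times. Under BA the shared probe set was 11.3-fold lower in the mutant, against 6.06-fold for the other. Under DMSO its log2 difference was -2.83 with 8 arrays, -4.38 without replicate 1 of the DMSO-treated mutant and -1.27 without replicate 2, against -2.85, -3.10 and -2.60 for the other. The genes AT3G25820 and AT3G25830 both carry the name TPS-CIN in the TAIR10.1 table, and reads of near-identical copies cannot be assigned to either.

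FACT stood at 1.26 and 1.10 with DMSO and at 1.17 and 1.41 with BA in wild type, with overlapping groups. In the mutant it was at 0.897 and 0.138 with DMSO and at 0.321 and 0.179 with BA. The DMSO-treated mutant arrays lay far apart, and the higher of them is the array that stood apart. The genotype difference under DMSO was therefore 3.35-fold with 8 arrays and 8.53-fold with 7 (log2 -1.74 and -3.09), and it was -0.39 on the log2 scale when replicate 2 was left out in place of replicate 1. Under BA, on arrays not used for the choice, FACT was 5.36-fold lower in the mutant (log2 change -2.42, SE 0.80 with 8 arrays and 0.28 with 7). This difference did not pass with 8 arrays (limma adjusted p = 0.304, unadjusted 95% interval -4.36 to -0.49) and passed with 7 (limma adjusted p = 0.00611). It did not pass with 6 arrays when wild-type BA replicate 2 was also left out (limma adjusted p = 0.0516).

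AT5G37990 was at 1.75 and 2.44 with DMSO and at 1.34 and 1.78 with BA in wild type. In the mutant it was at 0.656 and 0.0869 with DMSO and at 0.439 and 0.0923 with BA, so that in both mutant groups replicate 2 lay well below replicate 1. Group mates differed 7.55-fold in the DMSO-treated and 4.76-fold in the BA-treated mutant, the widest spread of the 6 genes in each group. The genotype difference under DMSO was 8.65-fold with 8 arrays and 23.8-fold with 7 (log2 -3.11 and -4.57), and -1.66 on the log2 scale when replicate 2 was left out in place of replicate 1. Under BA, on arrays not used for the choice, it was 7.69-fold (log2 change -2.94, SE 1.05 with 8 arrays and 0.65 with 7). The limma adjusted p was 0.326 with 8 arrays and 0.0432 with 7. Without any 1 of the 4 wild-type arrays as well it did not pass (limma adjusted p = 0.0977 to 0.218, 6 arrays). Its log2 difference came to -4.07 when replicate 1 of the BA-treated mutant was left out and to -1.82 when replicate 2 was.

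The BA effect in the mutant had no settled sign for TPS-CIN, FACT and AT5G37990. With 8 arrays it was -0.08, -0.55 and -0.25 on the log2 scale, and with 7 arrays it was 0.17, 0.80 and 1.21. For AT4G11190 the sign changed as well (0.23 with 8 arrays and -0.12 with 7). In wild type the BA effect was 0.12 ± 0.80 for FACT and -0.42 ± 1.05 for AT5G37990 with 8 arrays.

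As a description over 8 arrays that share their groups, the log2 values of AT4G11210 and AT5G47980 had a Pearson r of 0.992, those of both dirigent genes 0.971, and those of AT4G11190 and AT5G47980 0.949. FACT and AT5G37990 had 0.963, TPS-CIN and AT5G37990 0.900, and TPS-CIN and FACT 0.847 (0.952 with 7 arrays). Between the 2 patterns r ran from 0.677 (AT4G11190 with FACT) to 0.813 (AT4G11190 with TPS-CIN), and with 7 arrays from 0.744 (AT5G47980 with AT5G37990) to 0.874 (AT4G11210 with FACT). With 7 arrays AT4G11190 and FACT had 0.848. Among 13512 other probe sets with 1 gene name, the genes most like AT4G11210 were AT5G26260 (0.993 with 8 arrays and 0.993 with 7), AT5G47980 (0.992 and 0.993) and AT1G74770 (0.989 and 0.991). Those most like AT5G47980 were AT4G11210, AT1G74770 (0.991 and 0.990) and AT5G26260 (0.983 and 0.982), and those most like AT4G11190 were AT1G72140 (0.980 and 0.989), AT5G26260 (0.973 and 0.983) and AT4G11210 (0.971 and 0.979). JAL33 (0.986 and 0.991), AT1G55240 (0.985 and 0.987) and AT2G16005 (0.983 and 0.982) were most like TPS-CIN. AT5G09480 (0.990 and 0.991), the BAHD gene AT1G78990 (0.990 and 0.995) and AT2G23540 (0.984 and 0.993) were most like FACT. LSH9 (0.990 and 0.990), AT2G23540 (0.985 and 0.986) and AT1G09500 (0.984 and 0.992) were most like AT5G37990.

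Root markers lay lower in the mutant, in the same direction as the 6 genes. Of 35 listed root markers, 3 had a named probe set: PYK10, a root beta-glucosidase, and the root-hair expansins EXPA7 and EXPA18. PYK10 was at 1.07 to 1.37 on the wild-type arrays and at 0.552 to 0.928 on the mutant arrays. EXPA7 ranged from 1.16 to 1.84 and from 0.330 to 0.836, and EXPA18 from 1.09 to 1.91 and from 0.378 to 0.906. The summed relative value of the 3 was 3.46 to 5.12 in wild type and 1.26 to 2.44 in the mutant, and none was at 0. Each gene enters this sum relative to its own median, so the sum is not a measure of tissue content. All 3 lay lower on every mutant array than on every wild-type array, as did 3.04% of all probe sets. PYK10 was the only one of the 3 that passed a genotype test (under BA, -1.10 ± 0.16, limma adjusted p = 0.0127, 7 arrays), and none passed with 8 arrays (limma adjusted p = 0.182 to 0.381 over both treatments). The log2 differences of the root markers under BA were -1.58 to -1.10. Those of TPS-CIN, FACT and AT5G37990, on arrays not used for their choice, were -2.94 to -2.42. The other 3 of the 6 genes were chosen for this difference and are not set beside the markers. Under DMSO with 7 arrays the ranges met, with the root markers at -1.59 to -0.92. The tested differences of AT4G11190 (-1.50) and AT4G11210 (-1.59) lay within that range. The other 4 genes were at -4.57 to -2.70, and TPS-CIN, FACT and AT5G37990 among them were chosen for this difference. The part of root tissue in the genotype differences was not tested. With BA in wild type the 3 root markers differed by 0.19 to 0.30 on the log2 scale and none passed (limma adjusted p = 0.9803 to 0.9995, 8 arrays). AT4G11190, AT4G11210 and AT5G47980 were higher by 1.55 to 3.03, on arrays that entered their choice. Of 16 listed green shoot markers, 3 had a named probe set (RCA, LHCB4.1 and SBPASE). Their summed relative value, likewise not a measure of tissue content, was 2.56 to 3.37 in wild type and 2.38 to 3.18 in the mutant. Of the 3, RCA was higher in the mutant under BA with 7 arrays (0.62 ± 0.12, limma adjusted p = 0.0317) and did not pass with 8 (limma adjusted p = 0.463); it stood at 0.677 and 0.674 in wild type and at 1.04 and 1.03 in the mutant. LHCB4.1 and SBPASE did not pass in either genotype comparison.

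Of the genes next to the 6, some had a similar order of groups and others were flat. AT5G47950, the other acyltransferase gene of the thalianol cluster with a named probe set, was at 0.887 and 1.11 with DMSO and at 2.52 and 2.64 with BA in wild type. On the mutant arrays it was at 2.11 and 0.422 with DMSO and at 0.445 and 0.770 with BA, and the value of 2.11 belongs to the array that stood apart. It was 4.41-fold lower in the mutant under BA (-2.14 ± 0.26, limma adjusted p = 0.00762 with 7 arrays and 0.301 with 8), and its BA effect in wild type of 1.38 ± 0.26 did not pass (limma adjusted p = 0.0570, 7 arrays). AT5G47970, which directly precedes AT5G47980, was at 0.928 to 1.30 on all arrays. The oxidosqualene cyclase and cytochrome P450 genes of the cluster had no named probe set here.

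Near AT5G37990, the SABATH gene AT5G38020 was at 1.38 and 1.61 with DMSO and at 2.14 and 2.57 with BA in wild type, and at 0.327 to 0.620 on the mutant arrays. It was lower in the mutant by -2.04 ± 0.35 under DMSO and -2.41 ± 0.28 under BA (limma adjusted p = 0.0282 and 0.00657 with 7 arrays, 0.179 and 0.0893 with 8). AT5G38030, the next protein-coding gene after AT5G38020 and not on the SABATH list, had a similar order. In wild type it was at 1.08 and 1.62 with DMSO and at 1.64 and 2.48 with BA. On the mutant arrays it was at 0.917 and 0.137 with DMSO and at 0.261 and 0.152 with BA. Its log2 genotype difference was -3.34 under BA. Under DMSO it was -1.90 with 8 arrays and -3.27 with 7. AT5G37970, a closer SABATH neighbour, was at 0.441 to 0.482 on all 8 arrays, and AT5G37980, which directly precedes AT5G37990, at 0.882 to 1.17. The terpene synthase gene AT3G25810, near TPS-CIN, was at 0.519 to 0.682. Values of AT5G37970 and AT3G25810 below 1 on every array show that these probe sets were not given relative to their own median, and a flat value there does not show an unchanged level.

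**Figure D3:**
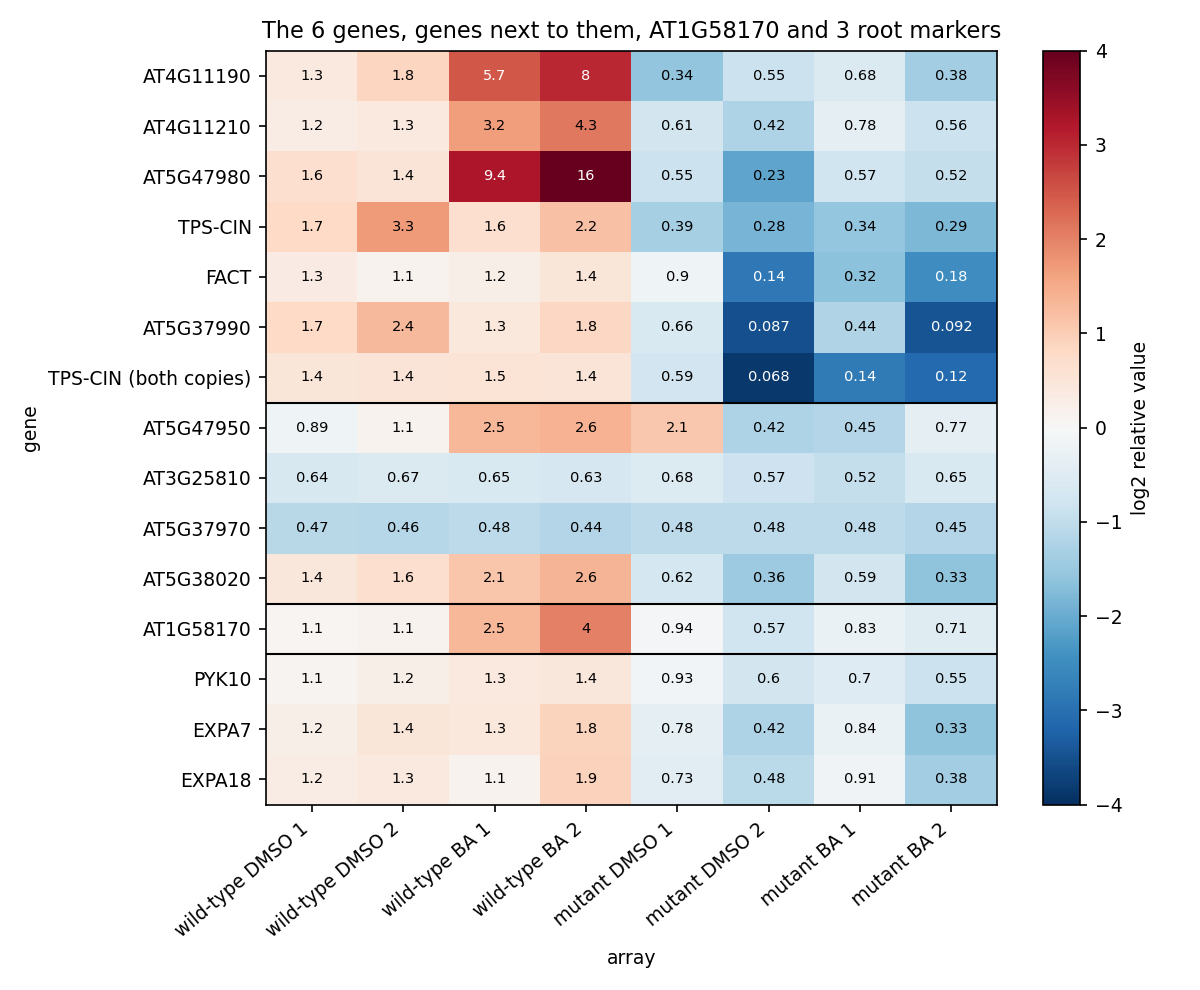
Relative values (numbers) and their log2 (colour) on the 8 arrays for the 6 genes, the probe set of both TPS-CIN copies, 4 genes near them, the dirigent-family gene AT1G58170 and 3 root markers. AT5G38020 and the root markers are lower on all mutant arrays, AT1G58170 and AT5G47950 are highest in wild type with BA, and AT3G25810 and AT5G37970 are flat.

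In the wider families most measured genes were not called. Each family held probe sets below 1 on every array, such as AT2G21110 (0.526 to 0.678) and AT4G20200 (0.429 to 0.587). AT1G03390 (0.513 to 0.601) and AT3G44840 (0.420 to 0.568) are others. As for AT5G37970 and AT3G25810, a small difference there does not show an unchanged level, and such probe sets enter the medians and shares below. Of the dirigent family, 15 of 26 listed genes had a named probe set, and the 13 other than AT4G11190 and AT4G11210 had a median log2 genotype difference under BA of 0.11, against 0.12 over all probe sets. With 7 arrays 2 of these 13 were lower and 1 higher under BA, against 7.68% called of all probe sets. AT1G58170 was 4.10-fold lower (-2.04 ± 0.23, limma adjusted p = 0.00632, 7 arrays), and AT4G13580 was lower as well (-1.44 ± 0.30, limma adjusted p = 0.0343), whereas AT1G65870 was 2.02-fold higher (1.01 ± 0.17, limma adjusted p = 0.0199). AT1G58170 also rose with BA in wild type, from 1.06 and 1.11 to 2.48 and 4.01 (1.54 ± 0.23, limma adjusted p = 0.0288, 7 arrays), where AT1G65870 fell (-1.09 ± 0.17, limma adjusted p = 0.0335); 2.27% of all probe sets were called there, and 0.022% with 8 arrays. On the mutant arrays AT1G58170 was at 0.572 to 0.940. Under DMSO AT4G13580 was the one gene called (-1.94 ± 0.36, limma adjusted p = 0.0368, 7 arrays), against 4.22% of all probe sets. None of the 13 passed in any of these comparisons with 8 arrays.

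Of the terpene synthases, 17 of 31 had a named probe set. The 16 other than TPS-CIN had a median genotype difference of -0.03 under BA and 0.03 under DMSO (7 arrays), against 0.12 and 0.07 over all probe sets. With 7 arrays 1 of the 16 was called in each genotype comparison (6.25%), near the share over all probe sets of 7.68% under BA and 4.22% under DMSO. AT3G32030 was lower under BA (-1.84 ± 0.26, limma adjusted p = 0.0115) and AT3G29410 under DMSO (-1.26 ± 0.24, limma adjusted p = 0.0399), and 0 of 16 passed for BA in either genotype (BA in the mutant called 0.0352% of all probe sets with 7 arrays and 0% with 8). AT3G29410 was at 2.89 on replicate 1 of the DMSO-treated mutant and at 0.788 on replicate 2, against 2.05 and 1.73 in wild type.

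Of the BAHD acyltransferases, 43 of 58 listed genes had a named probe set, and 42 probe sets were left without AT5G47980 and FACT. Under BA 8 of the 42 were lower and 0 higher in the mutant with 7 arrays (19.0%, against 7.68% over all probe sets), and 0 passed with 8 arrays, where 0.141% of all probe sets were called. The median of the 42 was 0.00. AT4G15390 was 4.73-fold lower (limma adjusted p = 0.00125), AT1G24430 3.52-fold (adjusted p = 0.00157), AT3G50300 6.29-fold (adjusted p = 0.00509) and AT5G47950, described above, 4.41-fold. AT4G15390, AT1G24430, AT3G50300 and AT1G78990 were also the 4 called under DMSO with 7 arrays, all lower (9.52% of 42, against 4.22% over all). On replicate 1 of the DMSO-treated mutant these 4 were at 1.55, 1.83, 4.04 and 1.06, against 0.162, 0.412, 0.271 and 0.309 on replicate 2. AT3G50300 (1.73 ± 0.29) and AT2G25150 (1.48 ± 0.24), a spermidine coumaroyltransferase, rose with BA in wild type (limma adjusted p = 0.0361 and 0.0324, 7 arrays).

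Of the SABATH methyltransferases, 16 of 24 had a named probe set, and the 15 other than AT5G37990 had a median genotype difference of 0.10 under BA. With 7 arrays 2 of the 15 (13.3%, against 7.68% called over all probe sets) were lower under BA: AT5G38020 and NAMT1, a nicotinate methyltransferase (-1.59 ± 0.18, limma adjusted p = 0.00547). Under DMSO AT5G38020 was the 1 of 15 called (6.67%, against 4.22% over all), and 0 of 15 passed with 8 arrays, where 0.141% of all probe sets were called under BA and 0.00879% under DMSO. The jasmonate methyltransferase gene JMT and the salicylate and benzoate methyltransferase gene BSMT1 were at 0.564 to 1.14 and at 0.541 to 0.774 on the 8 arrays. Neither passed in any comparison. BSMT1 lay below 1 on every array, and JMT on every array except wild-type DMSO replicate 2. Neither was thus given relative to its own median, and small differences of either do not show an unchanged level.

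**Figure D4:**
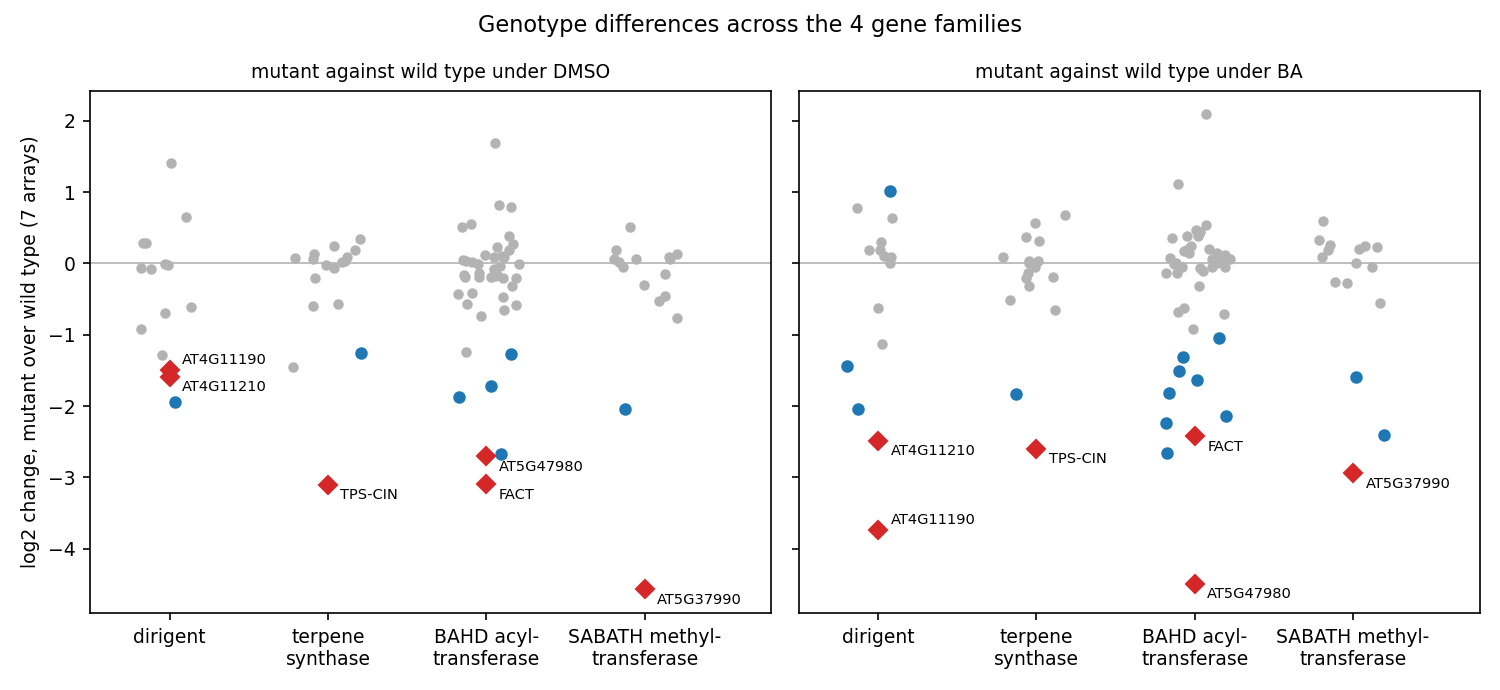
Log2 genotype difference (mutant over wild type, 7-array fit) under DMSO and under BA for the probe sets of 4 families; red diamonds are the 6 genes, blue circles other family members with a limma adjusted p under 0.05, and grey circles the remainder. Most family members lie near 0, among them probe sets below 1 on every array, where a small difference does not show an unchanged level. Blue circles lie below 0 except that of AT1G65870 under BA.

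The pathways that feed these enzymes were thinly covered. HCT, ALDH2C4 and CCR2 were the 3 of 21 phenylpropanoid and lignan genes with a named probe set and did not pass in any comparison. FACT itself was the 1 named gene of 17 on the suberin and root wax list, and 0 of 17 genes of isoprenoid precursor supply were named. Of the type-A response regulators, the rapid cytokinin-induced genes, 2 of 10 had a named probe set. RR16 was at 0.926 and 0.783 under DMSO in wild type, at 3.93 and 3.85 under BA, and at 0.609 to 0.748 on all mutant arrays. Its rise with BA in wild type (2.19 ± 0.17) and its lower value in the BA-treated mutant passed with 8 arrays (limma adjusted p = 0.0324 and 0.0159). ARR15 was at 0.635 and 0.613 under DMSO and at 6.16 and 2.23 under BA in wild type, and at 0.507 to 0.809 on the mutant arrays (BA in wild type, limma adjusted p = 0.164 with 8 arrays and 0.0349 with 7). As with AT4G11190, AT4G11210 and AT5G47980, the BA-treated wild-type arrays were the highest for both regulators. On all other arrays both lay below 1, so these probe sets were not given relative to their own median. A flat value there, in the mutant or under DMSO, does not show an unchanged level.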

How the data were processed

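Gene expression was measured on 8 single-colour arrays, grouped by genotype and treatment from the sample titles. The authors deposited 1 table of linear ratios. That the values are ratios to a median was read from the numbers; the sources used here name no program, background correction or scaling, and absolute level and depth are unknown. Tests ran without the 64 control probe sets. The probe annotation gives 1 gene for 13513 of 22746 probe sets, several for 503 and none for 8730. Current symbols and gene order came from RefSeq's TAIR10.1 table, matched on gene ID. Its start positions served to put the genes in order.

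The log2 values were fitted with limma (version 3.58.1, R 4.3.3), 1 mean per group, with empirical Bayes moderation. A call needs a Benjamini-Hochberg adjusted p, over all probe sets, below 0.05. The 8-array fit was run on simulated data with normal noise and no array that stood apart. The 7-array fit was not run on simulated data. The 8-array fit has 4 residual degrees of freedom and the 7-array fit 3. P-values measure the spread between these samples only, since no label says that group mates were separate cultures. The genes and lists were chosen with earlier results of these data known. Named from each list are up to 4 genes called per genotype comparison, every root marker and type-A regulator measured, and the genes adjoining the 6 in their cluster or tandem group; named as alike are the 3 genes with the highest r. AT5G47970, AT5G37980, AT5G38030, JMT, BSMT1 and the genes called with BA in wild type were added after their values were seen.

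Alternatives were log2(value + 1), quantile normalization, a filter on dim probe sets, array weights, a replicate block and leaving out arrays.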

Additional observations from a re-analysis of the deposited data

Results flagged for a closer look

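AT1G24430, a BAHD-family gene, stood out because its arrays lay higher with BA in wild type and lower with BA in the mutant: it went from 0.944 and 1.06 to 1.29 and 1.31 in wild type, and from 1.83 and 0.412 to 0.381 and 0.356 in the mutant. The difference between these responses was -1.61 on the log2 scale with 8 arrays and did not pass (limma adjusted p = 0.647; 0.399 with 7 arrays), so a difference in response was not shown. The value of 1.83 belongs to replicate 1 of the DMSO-treated mutant, the array that stood apart.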

How the results depend on the processing

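With 8 arrays 5 probe sets were called for BA in wild type, 0 for BA in the mutant, 2 for genotype under DMSO and 32 for genotype under BA. These counts were 12 (BA in wild type) and 61 (genotype under BA) on log2(value + 1), 116, 105 (genotype under DMSO) and 139 after quantile normalization, and 809 and 1230 (the outer pair) with array weights. Leaving out 1 array at a time gave 0 to 516, 0 to 5488, 0 to 5279 and 0 to 1747 calls, the highest without replicate 2 of the DMSO-treated mutant; leaving out its replicate 1 gave the same 516 and 1747, but 8 for BA in the mutant and 961 for genotype under DMSO. TPS-CIN under BA passed after quantile normalization (-2.73, limma adjusted p = 0.0385) and with array weights (-2.60, adjusted p = 0.0106), as did FACT (-2.42, adjusted p = 0.0213) and AT5G37990 (-2.94, adjusted p = 0.0456) with array weights. Leaving out arrays, from the 8 or from the 7, gave log2 differences of -2.20 to -1.27 for AT4G11190, -1.64 to -1.06 for AT4G11210, -2.84 to -2.36 for TPS-CIN, -2.84 to -2.00 for FACT and -4.07 to -1.82 for AT5G37990, all negative; the limma adjusted p ranged from 0.00188 to 0.917 over these 5 genes. The causes were not tested. Of 390 descriptive values under alternatives, 347 moved by less than 1 SD and 19 changed sign, 0 of them from a size above 1.

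Over probe sets, the log2 differences of replicate 1 from replicate 2 had correlations of -0.174 to 0.124 between groups. The replicate numbers were therefore not taken to pair samples. With the replicate block, fitted on all arrays, the counts of calls were 0 for BA in wild type, genotype under DMSO and genotype under BA. With crossed numbers, added after the data were seen, they were 1804, 0 and 1922. The crossed fits used only the arrays of each comparison, so the first and last left out the DMSO-treated mutant. The counts therefore differ in the arrays used as well as in the numbering, and the part of the numbering was not tested. Limma adjusted p under the block was 0.269 for AT4G11190, 0.267 for AT4G11210, 0.157 for TPS-CIN, 0.347 for FACT and 0.382 for AT5G37990. Arrays per group, 2, limit the precision.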
